A study of Mus musculus with 6 samples.

Results

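The genes for collagen chains were followed in differentiating mouse muscle cells in which the long noncoding RNA H19 had been depleted. Members were all genes that the array annotation lists under a single symbol made of Col, a type number, the letter a and a chain number, with nothing after it. The annotation held 46 such probe sets for 44 genes, of 19938 genes with 1 symbol in the table. Where a gene had 2 probe sets (Col6a5 and Col6a6), the brighter over all 6 arrays stood for it. The rule used no difference between the groups.

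The cells were C2C12, an established line of mouse myoblasts that fuse into myotubes when serum is lowered, here wild type. Both groups were grown with 10% fetal bovine serum, moved to 2% horse serum at about 90% density, and transfected at day 1 of differentiation with a control siRNA (siCon) or an siRNA against mouse H19 (simH19). RNA was taken 40 h later, with 3 arrays per group, and no other agent or allele is given. An siRNA lowers but does not delete its target, and C2C12 is a single line. The labels do not say whether each triplicate was its own culture, and the p-values therefore describe array-to-array spread that could be purely technical. In RNA from whole cultures, fewer cells that express a gene and less of its RNA per cell cannot be told apart.

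Collagens are secreted proteins whose chains carry long repeats with glycine at regular spacing and wind around each other into a rope-like helix. Fibrillar collagens build the tension-bearing fibres between cells, network collagens build sheets such as the basement membrane that wraps each muscle fibre, and FACIT collagens (fibril-associated collagens with interrupted helices) sit on the surface of fibrils. Others form the beaded filaments of type VI, anchoring fibrils, proteins that span the cell membrane, and the multiplexins, which carry sugar chains in basement membranes. The members were 11 fibrillar, 9 network, 9 FACIT and 15 other genes.

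H19 has no probe set of its own in the annotation. The probe set that stands for it here, listed under Supt6 and under Mir675, a microRNA made from H19, fell by 1.89 on the log2 scale (SE 0.04, limma adjusted p = 1.80e-05). All values below are log2 expression values and all differences are H19 siRNA minus control siRNA on that scale. Adjusted p-values are those of limma over all 21559 units tested, a unit being a gene or a probe set with several symbols. Arrays were alike as a whole (Pearson's r across all rows from 0.9958 to 0.9975), but the second H19 siRNA array stood apart over the whole table. Every pair with it (0.9965 at most) lay below every other pair (0.9967 at least). That array had a limma array weight of 0.41, against 1.01 to 1.39 for the other arrays. It gave the highest of the 6 values for 25 of 44 members, against 23.0% of all units, so class medians and the differences it shifted most are also given without it.

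No collagen chain gene passed an adjusted p of 0.05, and every difference was small. In limma 0 of 44 members passed, where 0.199% of all units passed. At an unadjusted p under 0.05 there were 7 members, against 10.9% of all units. They were 5 higher (6.61% of all units) and 2 lower (4.25%). After centring each array on its median the split was 1 higher and 2 lower, and after a second quantile normalization 2 and 2, with Col3a1 and Col12a1 the lower genes in both. The widest difference was 0.20 for Col19a1, and the 95% intervals of all 44 members stayed within a 1.5-fold change in either direction. Col19a1 was among 9 members under the median signal of all rows, and values are compressed near background. The others were Col4a3, Col4a4, Col4a6, Col6a4, Col6a5, Col10a1, Col15a1 and Col28a1. The 3 arrays of each group did not overlap for 10 members, or 22.7%, against 17.6% of all units. These 10 were all among the 35 members above that median signal, where 2769 of 12290 units did not overlap. The 7 members with an unadjusted limma p under 0.05 were there too, against 1542 such units. Higher without overlap were 7 members (10.5% of all units), namely Col18a1, Col4a1, Col24a1, Col5a3, Col5a1, Col1a2 and Col6a1. Lower without overlap were 3 members (7.09% of all units), namely Col12a1, Col3a1 and Col14a1. The median difference of the members was 0.06, against 0.01 for all units, and 33 of 44 were above 0, against 58.0% of all units. Without the second H19 siRNA array the members' median was 0.02 and 25 of 44 were above 0, against a median of 0.01 and 58.6% for all units. With the arrays centred on their medians 28 of 44 members were above 0, against 44.7% of all units.

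**Figure D1:**
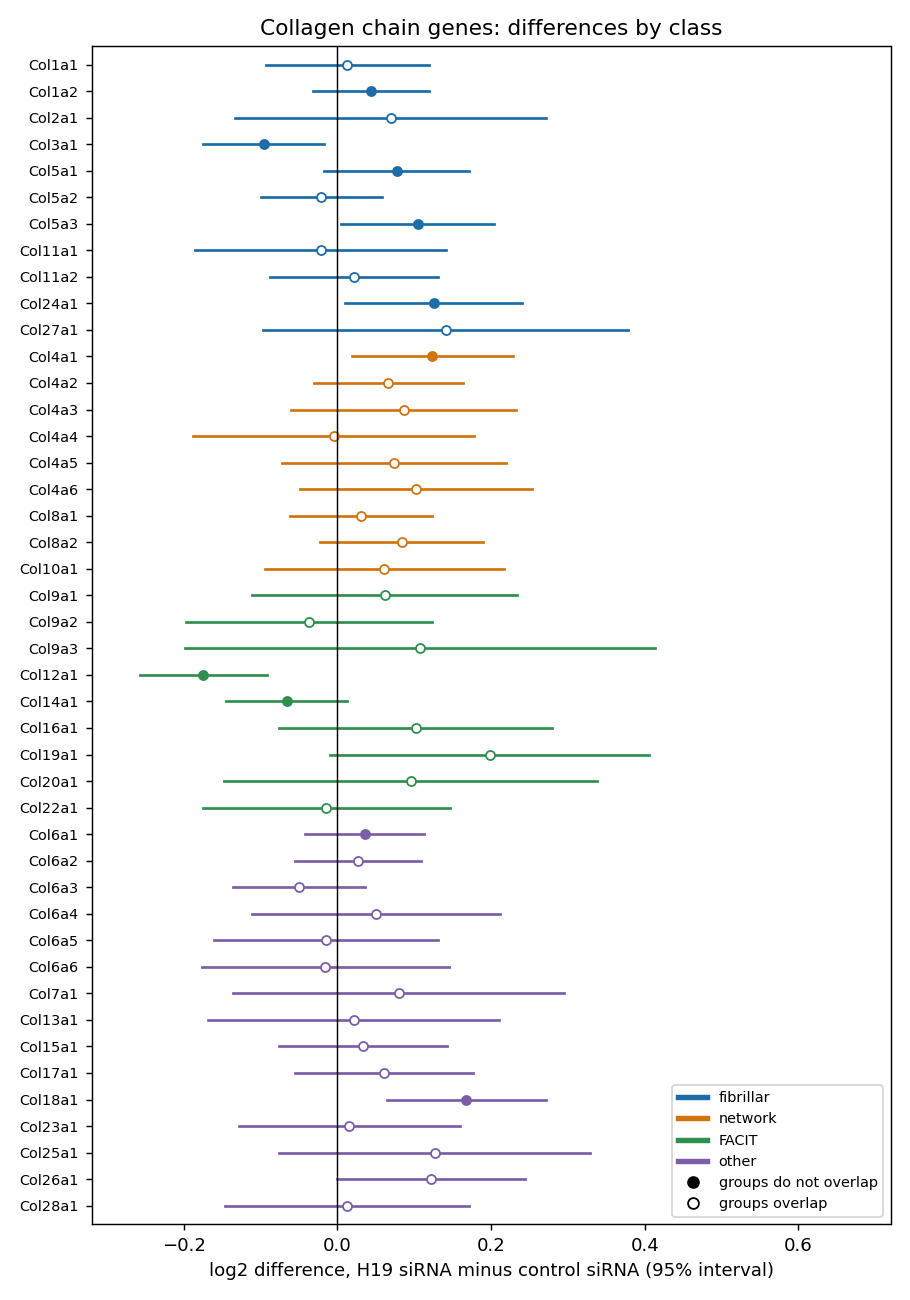
Log2 difference between 3 H19 siRNA and 3 control siRNA arrays (x axis) for each of the 44 collagen chain genes (y axis), with its 95% interval from limma, coloured by class. Filled points mark the 10 genes whose groups do not overlap. Col12a1 at -0.17 and Col18a1 at 0.17 lie furthest from 0 among the filled points.

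Among the members without overlap, Col3a1 and Col18a1 had the smallest p in each direction of those with a sequence window in the RefSeq promoter table (GRCm38.p6), a choice made after their values were seen. The 250 bases before their starts are shown 5′ to 3′ on the strand of the gene, with capitals marking each E-box, CANNTG, the motif that MyoD and myogenin recognise. The Col3a1 window is chr1:45311288-45311537 on the plus strand. The Col18a1 windows, for 2 annotated starts, are chr10:77166531-77166780 and chr10:77113706-77113955 on the minus strand. The probe set does not say which of these starts was used.
Col3a1: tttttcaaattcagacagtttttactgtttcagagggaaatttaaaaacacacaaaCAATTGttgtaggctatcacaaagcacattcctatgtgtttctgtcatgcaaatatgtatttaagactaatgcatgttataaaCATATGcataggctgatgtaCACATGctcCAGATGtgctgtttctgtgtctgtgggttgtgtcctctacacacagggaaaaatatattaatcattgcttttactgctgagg
Col18a1, first start: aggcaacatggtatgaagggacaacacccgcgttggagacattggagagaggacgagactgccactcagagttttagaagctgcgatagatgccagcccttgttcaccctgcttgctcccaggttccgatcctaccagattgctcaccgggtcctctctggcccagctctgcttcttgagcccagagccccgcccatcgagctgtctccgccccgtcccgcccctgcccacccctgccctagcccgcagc
Col18a1, second start: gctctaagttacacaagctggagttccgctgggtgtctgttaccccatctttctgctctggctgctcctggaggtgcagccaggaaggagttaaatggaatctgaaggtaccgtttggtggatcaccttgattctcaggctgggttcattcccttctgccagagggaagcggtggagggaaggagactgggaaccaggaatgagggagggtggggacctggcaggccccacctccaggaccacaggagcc
The Col3a1 window held 4 E-boxes and 1 TATA box (TATAAA), and no GC box (GGGCGG) or CCAAT box. The first Col18a1 window held 3 GC boxes, 1 CCAAT box and no E-box, and the second held none of these 4 motifs. Both strands were searched, the motifs do not contain one another, and a match is only a match of letters. Windows were listed for 35 of the 44 members. Counting 1 window per gene, an E-box was in 18 of these 35, against 66.0% of the windows of all genes, and a GC box in 21, against 32.9%. A CCAAT box was in 12 (34.5% of all windows) and a TATA box in 5 (13.0%).

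Fibrillar chains had differences of both signs, with 0 of 11 past the threshold. Col3a1, whose chain forms the type III fibrils that run beside type I in soft tissue, read 11.79, 11.78 and 11.80 on control arrays against 11.72, 11.66 and 11.70 on H19 siRNA arrays. Every H19 siRNA array was below every control array, by a difference of -0.10 (SE 0.03, 95% interval -0.18 to -0.02, limma adjusted p = 0.371). Col1a2, the second chain of type I collagen, read 11.61, 11.59 and 11.60 with control siRNA and 11.67, 11.64 and 11.63 with H19 siRNA. Its groups did not overlap either, but in the other direction, at 0.04 (95% interval -0.03 to 0.12). Col1a1, the first and more abundant chain of the same helix, read 10.12, 9.99 and 10.08 against 10.11, 10.06 and 10.06. Its groups overlapped, and the difference was 0.01 (95% interval -0.09 to 0.12).

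Type V collagen, which starts fibrils and sets their width, had 3 chains measured and none past the threshold. Col5a3, its rarer chain, read 8.50, 8.50 and 8.43 on control arrays, against 8.63, 8.59 and 8.53 with H19 siRNA, a difference of 0.10 (SE 0.04, limma adjusted p = 0.437). Col5a1 read 9.12, 9.19 and 9.20 against 9.29, 9.24 and 9.21, a difference of 0.08 (95% interval -0.02 to 0.17). All H19 siRNA arrays lay above all control arrays for both of these genes. Col5a2 read 10.46, 10.48 and 10.44 against 10.45, 10.41 and 10.46, with overlapping groups and a difference of -0.02 (95% interval -0.10 to 0.06).

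Col24a1, a minor fibrillar chain known from developing bone, read 6.754, 6.797 and 6.797 on control arrays, against 6.843, 7.001 and 6.880 with H19 siRNA. The groups did not overlap, with the second H19 siRNA array the highest, and the difference of 0.13 (limma adjusted p = 0.423) was 0.08 without that array. The other 4 fibrillar genes are the cartilage chains Col2a1, Col11a1, Col11a2 and Col27a1, which differed by -0.02 to 0.14 with limma adjusted p-values from 0.657 to 0.934. Without the second H19 siRNA array these 4 ran from -0.09 to 0.03, and Col27a1, at 0.14 the highest of them, was at 0.03. The class median was 0.04 with all arrays and 0.02 without the second H19 siRNA array.

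**Figure D2:**
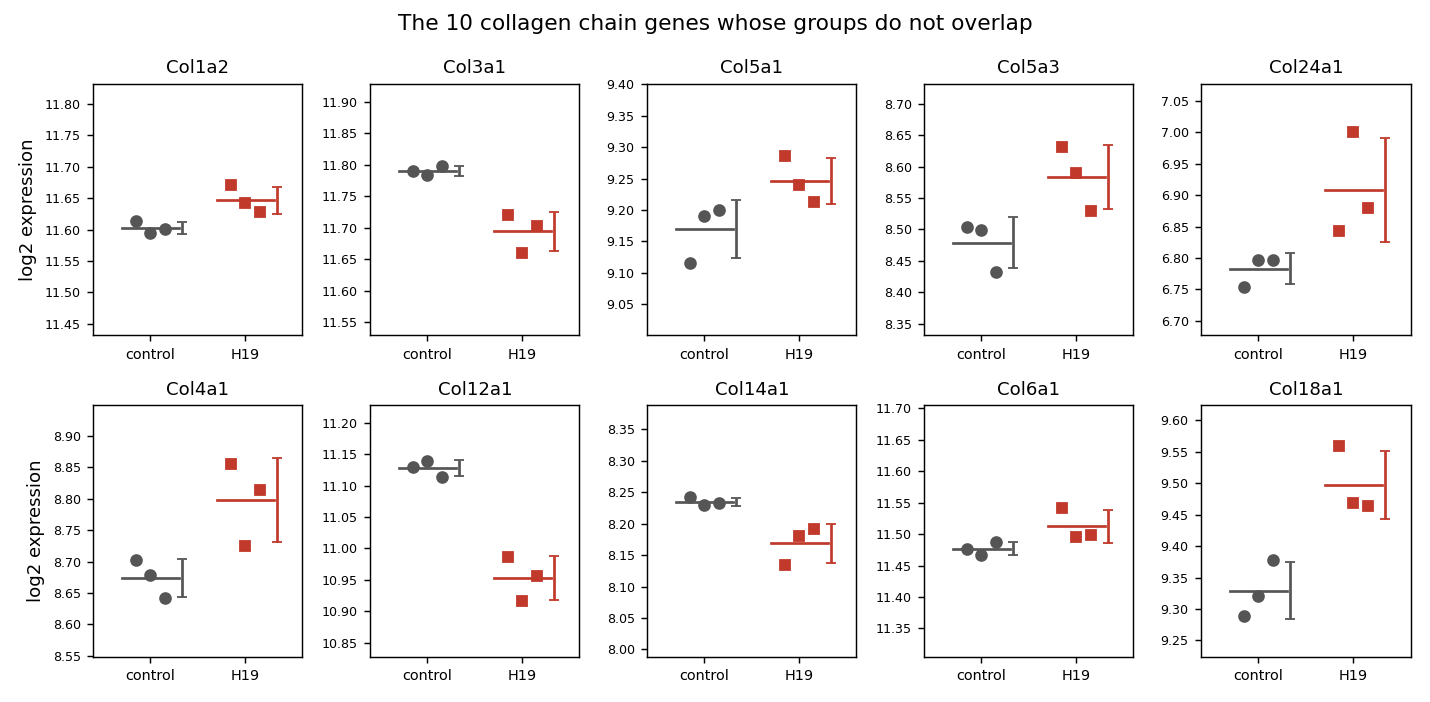
Log2 expression (y axis) of the 10 collagen chain genes whose groups do not overlap, with control siRNA arrays as grey circles and H19 siRNA arrays as red squares, replicates 1 to 3 from left to right. Horizontal lines are group means, bars are ± 1 SD (n = 3), and every panel spans the same range of log2 units but starts at its own value. Col3a1, Col12a1 and Col14a1 lie lower with H19 siRNA and the other 7 lie higher.

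Network chains were nearly all on the positive side of 0. Of 9 genes 8 had a positive difference, against 58.0% of all units, with a class median of 0.07. Without the second H19 siRNA array it was 8 of 9 again, against 58.6% of all units, with a median of 0.07. Col4a1, the main chain of basement membrane collagen, read 8.70, 8.68 and 8.64 with control siRNA and 8.85, 8.72 and 8.81 with H19 siRNA. No array of either group reached into the other, and the difference was 0.12 (SE 0.04, 95% interval 0.02 to 0.23, limma adjusted p = 0.391). Here the second array was the lowest of the H19 siRNA arrays, and without it the difference was 0.16 (limma unadjusted p = 0.0059). Col4a2, its partner in the helix, which the RefSeq table places next to Col4a1 on the chromosome, read 8.94, 8.90 and 8.96 against 9.05, 8.94 and 9.01. Its groups overlapped through the second H19 siRNA array. The difference of 0.07 (95% interval -0.03 to 0.16) was 0.10 without that array (limma unadjusted p = 0.0476). In the fit without that array 4 of 44 members had an unadjusted limma p under 0.05, against 2612 of 21559 units. Over all alternatives the limma adjusted p was at least 0.201 for Col4a1 and at least 0.406 for Col4a2.

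Col8a2, a chain of the short-chain collagen of vessel walls and the cornea, read 7.820, 7.962 and 7.895 against 7.956, 8.001 and 7.972, with a difference of 0.08 (limma adjusted p = 0.561) and 1 control array above the lowest H19 siRNA array. The remaining 6 network genes were Col8a1, its partner chain, Col10a1 of hypertrophic cartilage, and Col4a3, Col4a4, Col4a5 and Col4a6, type IV chains of more restricted tissues such as kidney. Their differences ran from -0.0050 for Col4a4 to 0.10 for Col4a6, with limma adjusted p-values from 0.616 to 0.989. Without the second H19 siRNA array they ran from -0.09 for Col4a4 to 0.10 for Col4a6.

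FACIT chains held the member with the smallest p of all 44. Col12a1, which coats type I fibrils in tendon and muscle connective tissue and is mutated in a form of inherited muscle weakness with lax joints, read 11.13, 11.14 and 11.11 with control siRNA. It read 10.99, 10.92 and 10.96 with H19 siRNA. The H19 siRNA arrays were all lower, with a gap between the groups wider than the range within either, and the difference was -0.17 (SE 0.03, 95% interval -0.26 to -0.09). Its limma adjusted p was 0.152 over all units, and over the alternatives it ran from 0.00448 to 0.489. It passed with an intensity trend and robust variance (adjusted p = 0.00448, where 2.02% of all units passed) and with a filter at the median signal (0.0408, where 1.74% passed). Without the second H19 siRNA array the difference was -0.16.

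Col14a1, a related coat protein that limits fibril width in tendon and skin, read 8.24, 8.23 and 8.23 with control siRNA and 8.13, 8.18 and 8.19 with H19 siRNA. It too was lower on all 3 H19 siRNA arrays, by -0.07 (95% interval -0.15 to 0.01, limma adjusted p = 0.534), and by -0.07 without the second one.

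Col19a1, a minor FACIT chain found in embryonic muscle and brain, read 5.88, 5.79 and 5.96 against 5.93, 6.26 and 6.04. The groups overlapped, and the difference of 0.20 (limma adjusted p = 0.484) was 0.11 without the second H19 siRNA array. Col22a1, the chain of the junction between muscle and tendon, read 7.09, 7.16 and 7.21 against 7.08, 7.28 and 7.05. Its highest and its lowest value both came from H19 siRNA arrays, and the difference was -0.01 (95% interval -0.18 to 0.15), or -0.08 without that array. The other 5 FACIT genes were the type IX chains Col9a1, Col9a2 and Col9a3 of cartilage, Col16a1 and Col20a1, with differences from -0.04 to 0.11. Without the second H19 siRNA array they ran from -0.10 to 0.05, and Col9a3, at 0.11 the highest of them, was at -0.04. The class median was 0.06, and -0.04 without the second H19 siRNA array.

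Among the other types, Col18a1 differed most. Its multiplexin chain lies in basement membranes and releases endostatin, a fragment that restrains vessel growth. It read 9.29, 9.32 and 9.38 with control siRNA and 9.56, 9.47 and 9.46 with H19 siRNA. All H19 siRNA arrays were higher, and the difference was 0.17 (SE 0.04, 95% interval 0.06 to 0.27, limma adjusted p = 0.249), or 0.18 without the second H19 siRNA array. The second multiplexin, Col15a1, whose loss causes a mild muscle disease in mice, read 6.65, 6.64 and 6.78 against 6.72, 6.74 and 6.70, a difference of 0.03 with the H19 siRNA values inside the control range.

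Type VI collagen, the beaded filament around muscle fibres whose defects cause Ullrich and Bethlem muscle disease, showed differences of at most 0.05 in either direction. Col6a1 read 11.48, 11.47 and 11.49 against 11.54, 11.50 and 11.50, without overlap, a difference of 0.04 (95% interval -0.04 to 0.11). Col6a2, which joins it in the same helix, read 10.72, 10.73 and 10.68 against 10.77, 10.71 and 10.74, a difference of 0.03 with overlapping groups. Col6a3, the longest chain of that helix, read 9.28, 9.36 and 9.31 against 9.28, 9.25 and 9.27, a difference of -0.05 (95% interval -0.14 to 0.04). Only its first array of each group kept the groups from separating. The alternative chains Col6a4, Col6a5 and Col6a6 differed by 0.05, -0.01 and -0.02, and by -0.02, -0.07 and -0.08 without the second H19 siRNA array. Second probe sets of Col6a5 and Col6a6 gave 0.09 for both genes, opposite in sign to the chosen ones, with intervals of all 4 probe sets that include 0.

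Collagens that span the cell membrane include Col13a1, which matures the nerve-muscle synapse, and Col25a1, which motor axons need to enter muscle. Col13a1 read 6.90, 6.99 and 7.08 against 6.86, 7.14 and 7.04, a difference of 0.02 that was -0.04 without the second H19 siRNA array. Col25a1 read 6.81, 6.94 and 6.80 against 6.94, 7.15 and 6.83, a difference of 0.13 (95% interval -0.08 to 0.33) that was 0.04 without that array. Both genes had overlapping groups. Col17a1, of the junction between skin and basement membrane, differed by 0.06 and Col23a1 by 0.02, or by 0.04 and -0.03 without that array.

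Of the last 3 genes, Col26a1 read 7.76, 7.67 and 7.77 against 7.77, 7.92 and 7.87, a difference of 0.12 (limma adjusted p = 0.460) that was 0.09 without the second H19 siRNA array. Its first H19 siRNA array lay within the control values. Col7a1, the anchoring fibril of skin, differed by 0.08, and Col28a1, a chain known from peripheral nerve, by 0.01. Without that array they were at -0.03 and -0.04. The median of the 15 other genes was 0.03 with all arrays (12 above 0), and -0.02 without the second H19 siRNA array (7 above 0). Of all units 58.0% were above 0 with all arrays and 58.6% without that array.

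Chains that share a helix or a fibril were set against each other on the same array, for 13 pairs chosen after the values were seen. The difference between partners was compared between groups with a two-sided exact permutation test, which for 3 against 3 arrays cannot go below 0.1. No pair could therefore pass, and the values are a description. The limit was reached in 4 pairs (smallest adjusted p = 0.325, exact permutation). The level of Col1a2 relative to Col3a1 was 0.14 higher with H19 siRNA, with SDs over arrays of 0.01 and 0.03. Relative to Col6a3, Col6a1 was 0.09 higher (SDs of 0.05 over control and 0.02 over H19 siRNA arrays) and Col6a2 0.08 higher (0.04 and 0.01). Col4a1 was 0.06 higher relative to Col4a2, close to the SD of 0.05 over control arrays (0.01 over H19 siRNA arrays). For Col1a1 relative to Col1a2 the value was -0.03, within the SD of 0.06 over control arrays (exact permutation p = 0.4).

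The second H19 siRNA array split the members by signal. Of the 29 members whose mean over 6 arrays was under 8, a limit set after the values were seen, 28 read higher on it than the mean of the other 2 H19 siRNA arrays, by a median of 0.19. Of the 15 members at or above 8, 2 did, and the median deviation was -0.04. Among all units the same array was above the other 2 for 61.2% of those under 8 and for 20.0% of those at or above 8, with median deviations of 0.04 and -0.04. Col9a3, Col27a1 and Col7a1 deviated most, by 0.45, 0.34 and 0.32, and the brighter Col4a1 by -0.11.

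**Figure D3:**
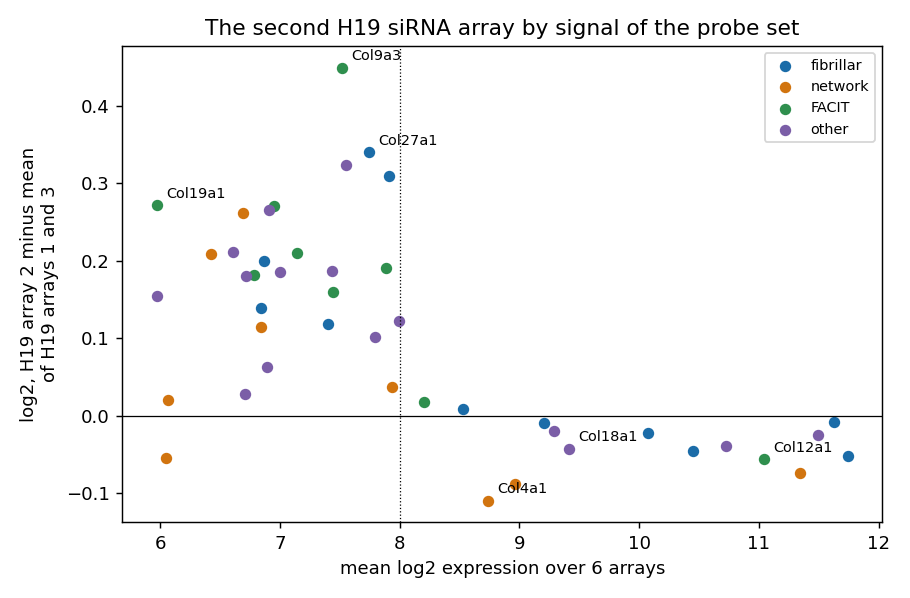
Second H19 siRNA array minus the mean of H19 siRNA arrays 1 and 3 (y axis, log2) against the mean over 6 arrays (x axis, log2) for the 44 collagen chain genes, coloured by class. The dotted line marks a mean of 8. To its left 28 of 29 genes lie above 0, and to its right 2 of 15 do.

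That split bears on the sign of the dim members' differences. With all arrays the median difference of the 29 members under 8 was 0.06, with 23 above 0 (64.4% of all units under 8). For the 15 at or above 8 it was 0.03, with 10 above 0 (50.3% of all units there). Without the second H19 siRNA array the median of the 29 was 0.0012, with 15 above 0 (56.6% of all units under 8). That of the 15 was 0.04, with 10 above 0 (61.0% of all units there). The labels give no batch or scan date, and why this array read higher for dim members was not tested.

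**Figure D4:**
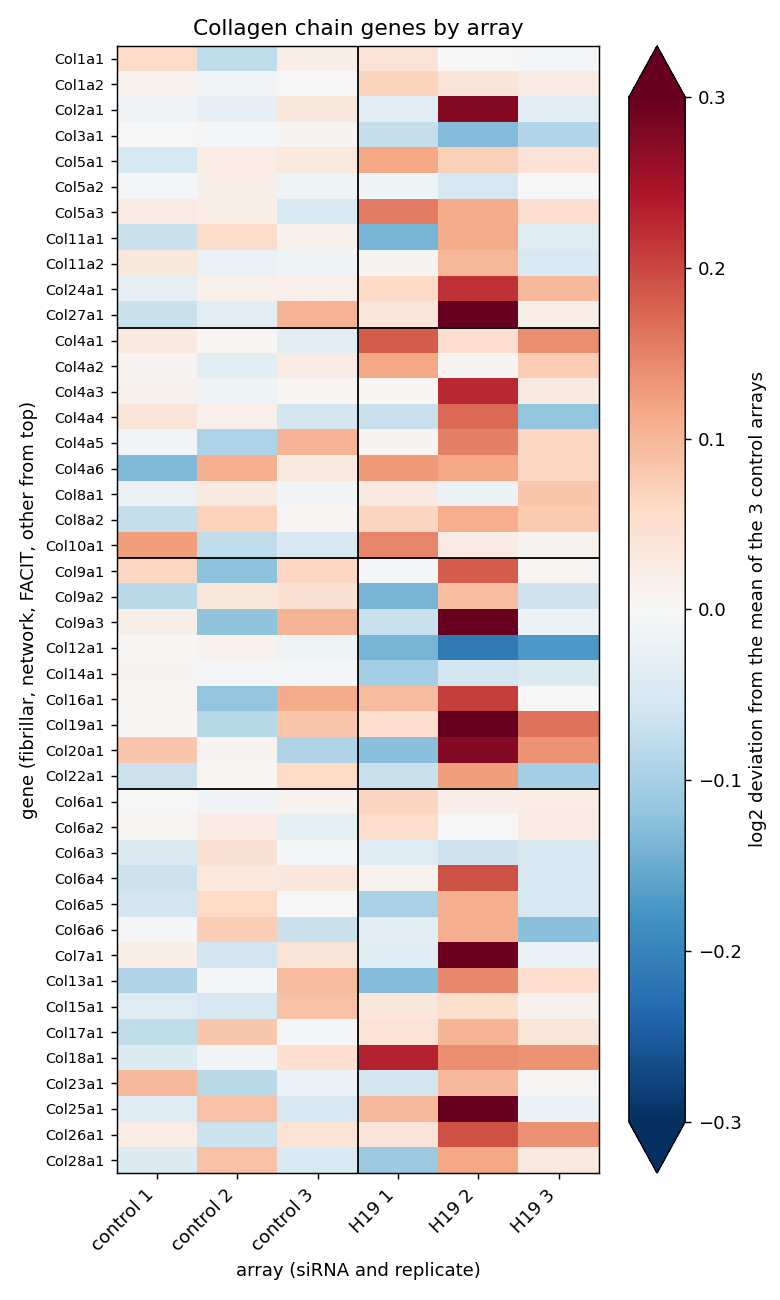
Deviation of each array (columns) from the mean of the 3 control arrays for each collagen chain gene (rows, grouped by class), on the log2 scale from -0.3 (blue) to 0.3 (red), with values beyond those shown at the end colours. The column of H19 array 2 is red for most genes, and Col3a1, Col6a3, Col12a1 and Col14a1 are below the control mean on all 3 H19 arrays.

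The genes that make, process, bind, sense or regulate collagen included 2 that passed, both lower. Of 124 genes on 5 lists 118 were measured, 0 rose (0.125% of all units) and 2 fell (0.0742%), and the median difference was 0.0014, against 0.01 for all units. Both were among 29 fibril partners. Dcn, decorin, which binds type I fibrils, read 12.72, 12.69 and 12.73 on control arrays, against 12.19, 12.21 and 12.23 with H19 siRNA (limma adjusted p = 0.0073). Lum, lumican, a second small proteoglycan of fibrils, read 7.42, 7.38 and 7.40 against 6.56, 6.23 and 6.56 (limma adjusted p = 0.0227). Their gaps of -0.50 and -0.95 are larger than that of any collagen chain gene. Both calls were lost with the replicate number as a block (limma adjusted p = 0.135 for Dcn and 0.133 for Lum). Leaving out any 1 array other than the second H19 siRNA array also ended both calls, with limma adjusted p-values from 0.0567 to 0.0774 for Dcn and from 0.0830 to 0.143 for Lum. With unlisted probe sets included, Lum did not pass (limma adjusted p = 0.0855). Earlier results of these data were known when the list was made, so the 2 genes are no independent finding.

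Genes for folding and modification of the chains had a median of -0.0053 over 24 measured genes, with 0 past the threshold. The smallest p in this list belonged to Tmem38b, an ion channel of the endoplasmic reticulum needed for collagen modification in bone, at 0.17, and Colgalt2, which adds galactose to collagen, at 0.25. Colgalt2 was dim, with a mean of 5.30 that lay under the 30th percentile of all rows. For the 21 processing and crosslinking genes the median was -0.0018, again with 0 past the threshold, and the smallest p were those of Tgm2, a crosslinking transglutaminase, at 0.22, and Ctsk, a collagen-degrading protease, at -0.11. Among 18 receptors 0 passed, with a median of 0.04. Antxr2, which binds type IV collagen and laminin, was at -0.21 and Adgrg1, a receptor for type III collagen, at 0.21. At an unadjusted limma p under 0.05, 3 receptors were higher (6.61% of all units) and 4 lower (4.25%). The groups did not overlap for 10 of the 18, against 17.6% of all units. Of 26 transcription regulators 0 passed, with a median of 0.03. They were led by Tgfb2, a growth factor that induces matrix genes, at 0.14 and Sox6, a cartilage regulator, at 0.13. Sox6 and Ctsk lay under the median signal of all rows. Over all 5 lists, 24 of 118 genes had an unadjusted limma p under 0.05, 12 higher and 12 lower, against 10.9% of all units. For 40 of the 118 the groups did not overlap, against 17.6% of all units. Most list genes were above the median signal of all rows. Among the units above it, 2769 of 12290 did not overlap and 1542 had an unadjusted limma p under 0.05.

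**Figure D5:**
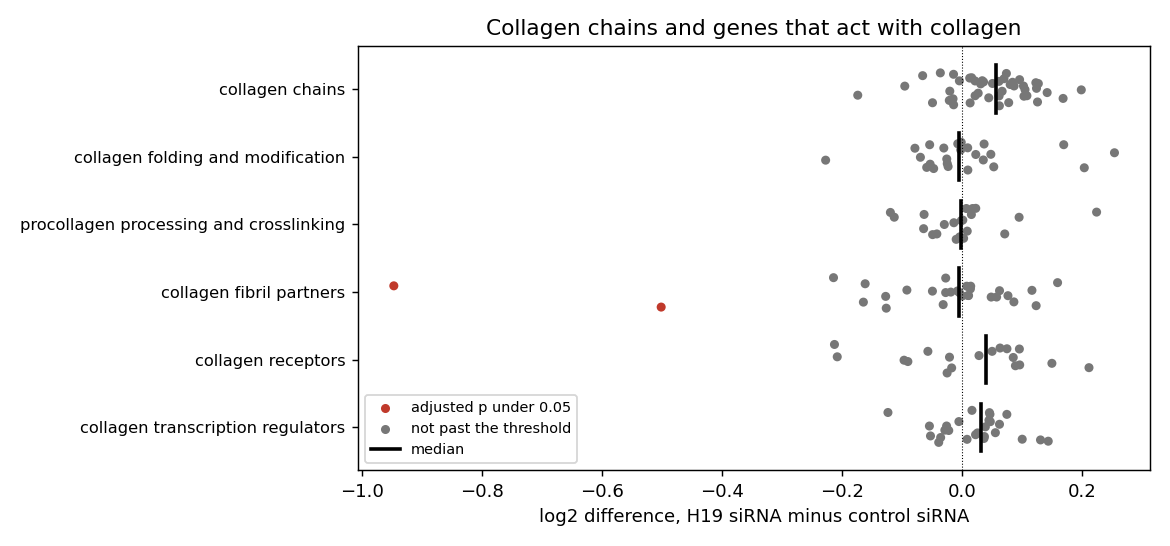
Log2 difference between H19 siRNA and control siRNA (x axis) for the 44 collagen chain genes and the measured genes of 5 lists (rows), each point a gene and each black line a median. The red points are Lum at -0.95 and Dcn at -0.50. No collagen chain gene is red.

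Markers of the labelled cell type were present. Of 10 skeletal muscle markers 9 lay above the median signal of all rows, Myf6 being the exception. Their mean ran from 10.83 to 10.86 on control arrays and from 10.94 to 10.97 on H19 siRNA arrays, with 5 of 10 higher at an unadjusted limma p under 0.05 (6.61% of all units) and 0 past the adjusted threshold. The 9 fibroblast and tendon markers had means of 7.43 to 7.44 and 7.33 to 7.44, with Scx and Pdgfra bright and 5 of 9 under the median signal. At an unadjusted limma p under 0.05, 2 of the 9 were lower (4.25% of all units) and 0 higher, and 0 passed the adjusted threshold. They were Pdgfra, a growth factor receptor of fibroblasts, and Pi16, a marker of a fibroblast subset. Pdgfra read 9.65, 9.69 and 9.58 on control arrays, against 9.53, 9.27 and 9.37 with H19 siRNA, a difference of -0.25 (limma adjusted p = 0.268). Pi16, one of the markers under the median signal, read 6.79, 6.81 and 6.68 against 6.63, 6.64 and 6.47. Its difference was -0.19 (limma adjusted p = 0.345). Both genes were lower on all 3 H19 siRNA arrays without overlap, as were 7.09% of all units. The list as a whole was mixed, with 5 of the 9 markers below 0 and 4 above it. Those above 0 were Dpt at 0.12, Thy1 at 0.07, Scx at 0.04 and Tnmd at 0.03. Scx was higher on all 3 H19 siRNA arrays without overlap (limma adjusted p = 0.738). Under the median were also 8 of 9 bone and cartilage, 8 of 8 endothelial, 6 of 8 macrophage and leukocyte, 5 of 6 adipocyte and 4 of 6 nerve markers. In these lists an unadjusted limma p under 0.05 was reached by 1 bone and cartilage marker (Dmp1, lower), 1 endothelial marker (Emcn, higher) and 1 macrophage and leukocyte marker (Cd68, lower), and by 0 adipocyte and 0 nerve markers. None passed the adjusted threshold. The part of these marker shifts in the differences of collagen genes was not tested.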

How the data were processed

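Per the submitters' processing notes, the authors used RMA in Affymetrix Expression Console, which corrects background, normalises arrays by quantiles and summarises probes. The deposited values of the 6 arrays are therefore log2 expression per probe set, compressed near background. The version of that software is not given in the sources used here, nor is its probe annotation. Array medians over 35556 rows ran from 6.73 to 6.78. Scanner intensities were not used here, dim probe sets carry no detection call, and the number of arrays limits precision.

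GEO's platform annotation named the probe sets (21789 rows with 1 symbol, 1621 with several, kept as unnamed units, and 12146 not listed, left out), with the brightest probe set per gene. The groups were compared in limma 3.58.1 (R 4.3.3; lmFit, eBayes, no covariate), two-sided, with Benjamini-Hochberg adjustment over 21559 units. All 44 members entered the fit, since no filter on low values was used. On 10 simulated sets of 200 changed genes in 21559 units, the fit called 39.9% of differences of 0.25 and 95.0% of differences of 0.5. The simulated noise was independent and normal, with each unit's variance as estimated by limma. No simulated array deviated as the second H19 siRNA array did, so these shares need not hold for the real arrays.

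The members, classes and lists were chosen with earlier results of these data known. Values of all 6 arrays are given for the 12 members with the smallest p and for 18 genes known from muscle matrix or muscle junctions, 22 genes in all. Of each pathway list the 2 genes with the smallest p and any past the threshold are named. Replicate numbers were not taken as pairs, since same-numbered arrays did not deviate together.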

Additional observations from a re-analysis of the deposited data

How the results depend on the processing

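Over the alternatives (variance model, scaling, filters, array weights, replicate block, probe set choice, rows tested, each array left out), 0 collagen chain genes passed except for Col12a1 alone, 1 gene, with an intensity trend and robust variance and with the filter at the median. The 7 members at an unadjusted limma p under 0.05 became 3 after array median centring, 4 after a second quantile normalization and 4 with all rows, and ran from 2 to 7 over the arrays left out (2 without control siRNA replicate 3, 3 without control siRNA replicate 1, and 4 without control siRNA replicate 2 or H19 siRNA replicate 2). Leaving out an array also leaves fewer degrees of freedom. The median difference of members ran from 0.0182 without H19 siRNA replicate 2 to 0.0675 without H19 siRNA replicate 3. The 2 pathway genes that passed became 10 with an intensity trend, 7 with the filter at the median, 1 with all rows and 0 with the replicate block, and 0 to 2 over the arrays left out, with 2 only without H19 siRNA replicate 2. Same-numbered arrays had deviation correlations of -0.0172, -0.134 and -0.136, so the block result is that of a shared number only. It left 0 collagen genes past the threshold.

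Under at least 1 alternative 16 of the 44 collagen genes changed sign, none of them past the threshold, and 8 did without H19 siRNA replicate 2. Among the 22 genes given by array these were Col1a1, Col13a1 and Col22a1. Col1a1 was at -0.0095 and Col13a1 at -0.0012 after median centring, and Col13a1 at -0.0206 with array weights. Over the arrays left out Col1a1 ran from -0.0257 to 0.0420, Col13a1 from -0.0409 to 0.0973 and Col22a1 from -0.0844 to 0.0286. The causes of these changes were not tested.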
